A study of Mus musculus with 6 samples.

Results

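The Wnt pathway gene Lef1 and 9 further genes of that pathway were compared between 2 kinds of reprogrammed mouse cells. The 10 genes were the TCF/LEF factors Lef1, Tcf7, Tcf7l1 and Tcf7l2, the coactivator Ctnnb1 (beta-catenin), the target genes Axin2 and Sp5, the ligand Wnt5a, the Wnt carrier Wls and the secreted antagonist Dkk1. A gene was taken through every probe set with exactly 1 gene symbol, and this gave 9 probe sets for 9 of the 10 genes, out of 23344 probe sets and 19308 named genes in all. No probe set was matched to Tcf7, so its level was not analysed here. The list was drawn up with the difference of Lef1 and Wnt5a between these same arrays already known. The differences of the 9 genes are therefore given as a description, with no test.

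In canonical Wnt signalling a secreted Wnt protein binds a Frizzled receptor with its co-receptor, which stops a cytoplasmic complex of Axin, Apc and Gsk3 from marking beta-catenin for destruction. Beta-catenin then enters the nucleus and works through TCF/LEF factors on target genes. In mouse embryonic stem cells the pathway favours self-renewal, largely because beta-catenin relieves the repression that Tcf7l1 places on pluripotency genes, and it also primes cells for primitive streak fates. Other Wnt proteins, Wnt5a among them, act mainly through planar polarity and calcium routes.

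The 3 iPS arrays held RNA of induced pluripotent stem cells and the 3 ntES arrays that of embryonic stem cells derived after nuclear transfer. Both kinds came from tail-tip fibroblasts of generation 3 (G3) Terc-/- mice, which lack the telomerase RNA, so every array is from telomerase-deficient cells and none from cells with Terc. All cells were grown in ES medium over fibroblast feeders stopped with mitomycin C, and total RNA was hybridised to Affymetrix gene arrays. The design text gives 3 biological repeats of each cell line. Nothing says that a group holds more than 1 line, in which case line and method cannot be told apart, and p-values cover only the spread between these samples. The sources used here do not give the reprogramming factors of the iPS cells or the ages of the mice.

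Values are log2 signals, and a difference is always ntES minus iPS on that scale. Array medians lay within 0.088 of each other, at 7.61 to 7.64 on the iPS and 7.67 to 7.70 on the ntES arrays. Every ntES median was thus above every iPS median. The SD over probe sets lay between 1.51 on ntES replicate 1 and 1.74 on ntES replicate 3. In the limma fit over all 23344 probe sets, 11.3% were called at an adjusted p under 0.05, with 5.19% higher and 6.13% lower in ntES cells. This split of 1212 higher and 1431 lower became 823 and 1911 after median centring, and 1735 and 1206 without ntES replicate 1. All 10 pluripotency markers, Pou5f1, Sox2 and Nanog among them, read at or above the median probe set. In such bulk samples a difference in the number of cells of a type and one in the RNA per cell cannot be told apart.

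Promoter sequences from RefSeq (GRCm38.p6) were used for 9 of the 10 genes, Wnt5a not being analysed here. TCF/LEF factors are known to act on their own pathway's genes, and 4 stretches of 250 bases before an annotated start are shown. Capitals mark the TCF/LEF core CTTTGA and its variant CTTTGT on either strand, written 5′ to 3′ along the gene. The first is the upstream start of Lef1 (chr3:131110047-131110296, plus strand), which holds no match, and the next is an internal start of Lef1 (chr3:131156044-131156293, plus strand). Sp5 (chr2:70474673-70474922, plus strand) is a zinc finger repressor, and Dkk1 (chr19:30549497-30549746, minus strand) a feedback antagonist. The internal Lef1 start, Sp5 and Dkk1 are the only ones of all 15 windows that hold CTTTGA, so the stretches shown are not typical.
Lef1, upstream start: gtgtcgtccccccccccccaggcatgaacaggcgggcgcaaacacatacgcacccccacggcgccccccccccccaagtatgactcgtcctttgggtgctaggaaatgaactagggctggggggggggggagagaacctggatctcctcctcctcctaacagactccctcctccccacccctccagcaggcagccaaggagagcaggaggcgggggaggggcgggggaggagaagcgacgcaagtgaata
Lef1, internal start: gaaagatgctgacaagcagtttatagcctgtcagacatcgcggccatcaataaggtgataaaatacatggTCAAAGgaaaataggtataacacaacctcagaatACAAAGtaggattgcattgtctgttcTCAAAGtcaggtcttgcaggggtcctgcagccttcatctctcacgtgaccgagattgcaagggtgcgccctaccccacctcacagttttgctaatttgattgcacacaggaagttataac
Sp5: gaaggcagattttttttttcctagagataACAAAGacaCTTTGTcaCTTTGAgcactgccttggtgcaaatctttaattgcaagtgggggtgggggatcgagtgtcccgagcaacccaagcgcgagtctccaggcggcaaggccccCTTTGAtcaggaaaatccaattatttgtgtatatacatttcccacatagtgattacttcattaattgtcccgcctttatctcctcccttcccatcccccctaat
Dkk1: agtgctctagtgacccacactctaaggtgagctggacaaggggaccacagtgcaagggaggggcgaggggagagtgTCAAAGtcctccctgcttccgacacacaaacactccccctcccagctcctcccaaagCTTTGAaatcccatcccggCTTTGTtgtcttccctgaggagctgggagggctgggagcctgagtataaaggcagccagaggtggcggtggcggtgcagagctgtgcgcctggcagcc

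The internal Lef1 start had 2 CTTTGA matches and 1 CTTTGT match, Sp5 had 2 and 2, and Dkk1 had 2 and 1. At the internal Lef1 start the CTTTGA matches began 180 and 120 bases before the start. Those of Sp5 began at 204 and 104 bases, and those of Dkk1 at 174 and 117 bases. Tcf7l1 and the second annotated start of Tcf7l2 had 1 CTTTGT match each. In all, 5 of the 15 windows of these genes held either form, against 27.6% of 32851 windows of the same length in the whole table, so the share was near the background. Some of the 15 windows overlap, as do those of neighbouring Lef1 starts. GC boxes, GGGCGG on either strand, stood in 11 of the 15 windows and in 32.7% of all windows. Most of those 11 windows were GC-rich, such as the upstream Lef1 start with 66.4% G or C, against a median of 52.4% over all windows. A match describes letters only and is no measure of binding.

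**Figure D1:**
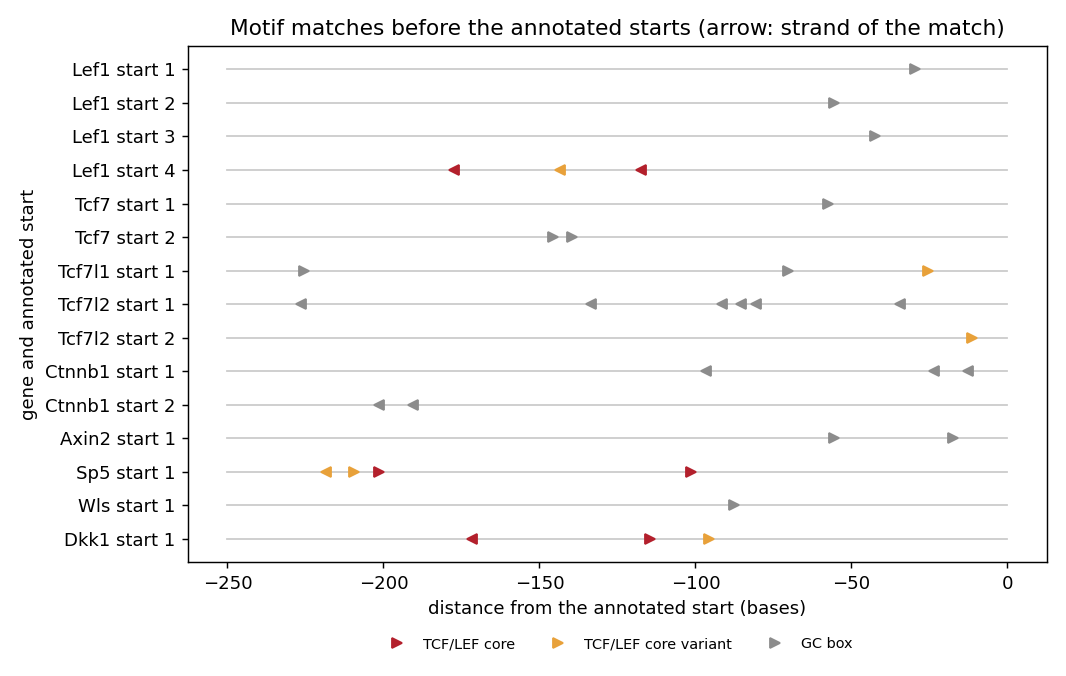
Matches to the TCF/LEF core (red), its variant (orange) and the GC box (grey) in the 250 bases before each of 15 annotated starts, with distance from the start in bases on the x axis and the direction of the match as the arrow. The red matches lie at the internal Lef1 start, Sp5 and Dkk1.

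Lef1, a TCF/LEF factor that mostly activates targets together with beta-catenin, had the largest difference of the 9 genes. It read 8.97, 9.07 and 8.97 on the iPS arrays and 7.65, 7.79 and 7.93 on the ntES arrays. Every ntES array lay below every iPS array, with a gap of 1.04 between the closest 2. The means were 9.003 ± 0.057 and 7.791 ± 0.142 (SD, n = 3 each), a difference of -1.21 ± 0.09 (SE), or 2.32-fold lower in ntES cells. By size this difference ranked 71 of 23344 probe sets. Lef1 has 1 probe set here, and which of its annotated starts that probe set reads was not tested.

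The other TCF factors lay lower in ntES cells too, by less. Tcf7l2, which can activate or repress, read 9.47, 9.39 and 9.23 in iPS and 8.75, 8.91 and 9.10 in ntES cells. The groups did not overlap, and the difference was -0.45 ± 0.11 (SE). Tcf7l1, the main repressor of the family in embryonic stem cells, read 10.29, 10.33 and 10.11 in iPS and 9.79, 9.90 and 10.09 in ntES cells. Its groups came within 0.024 of each other, and the difference was -0.32 ± 0.10 (SE). Ctnnb1 read 11.84, 11.86 and 11.63 in iPS and 11.51, 11.68 and 11.89 in ntES cells, so that the highest and the lowest array were both of ntES cells. Its difference was -0.08 ± 0.11 (SE). All of the TCF/LEF factors that were measured thus had lower ntES means, while the difference of their coactivator was smaller than its SE.

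Among the targets, Axin2, a scaffold of the destruction complex that is widely used as a readout of beta-catenin activity, read 8.10, 8.21 and 8.12 in iPS and 8.13, 8.36 and 8.25 in ntES cells. The groups overlapped, with a difference of 0.10 ± 0.09 (SE). Sp5 read 7.392, 7.353 and 7.476 in iPS and 7.416, 7.315 and 6.997 in ntES cells. Its groups overlapped as well, and ntES replicate 3 stood below the rest, with a difference of -0.16 ± 0.11 (SE). Both targets thus differed far less than Lef1, by point estimate.

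The ligand, the carrier and the antagonist were higher in ntES cells. Wnt5a, a ligand that acts mostly outside the beta-catenin route, read 8.19, 8.10 and 8.02 in iPS and 8.32, 8.54 and 8.68 in ntES cells, a difference of 0.41 ± 0.10 (SE). Wls, the membrane protein that carries Wnt proteins to the cell surface, read 9.84, 9.66 and 9.52 in iPS and 9.96, 10.21 and 10.39 in ntES cells, a difference of 0.51 ± 0.12 (SE). For both genes all ntES arrays lay above all iPS arrays. Dkk1, which blocks the Lrp5 and Lrp6 co-receptors, read 7.20, 6.90 and 7.20 in iPS and 7.62, 7.66 and 7.54 in ntES cells. Its groups were 0.34 apart at the closest arrays, and the difference was 0.51 ± 0.10 (SE), or 1.42-fold. Dkk1 and Sp5 were dim, with means below the median probe set, where background in the signal makes a fold look smaller than it is.

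**Figure D2:**
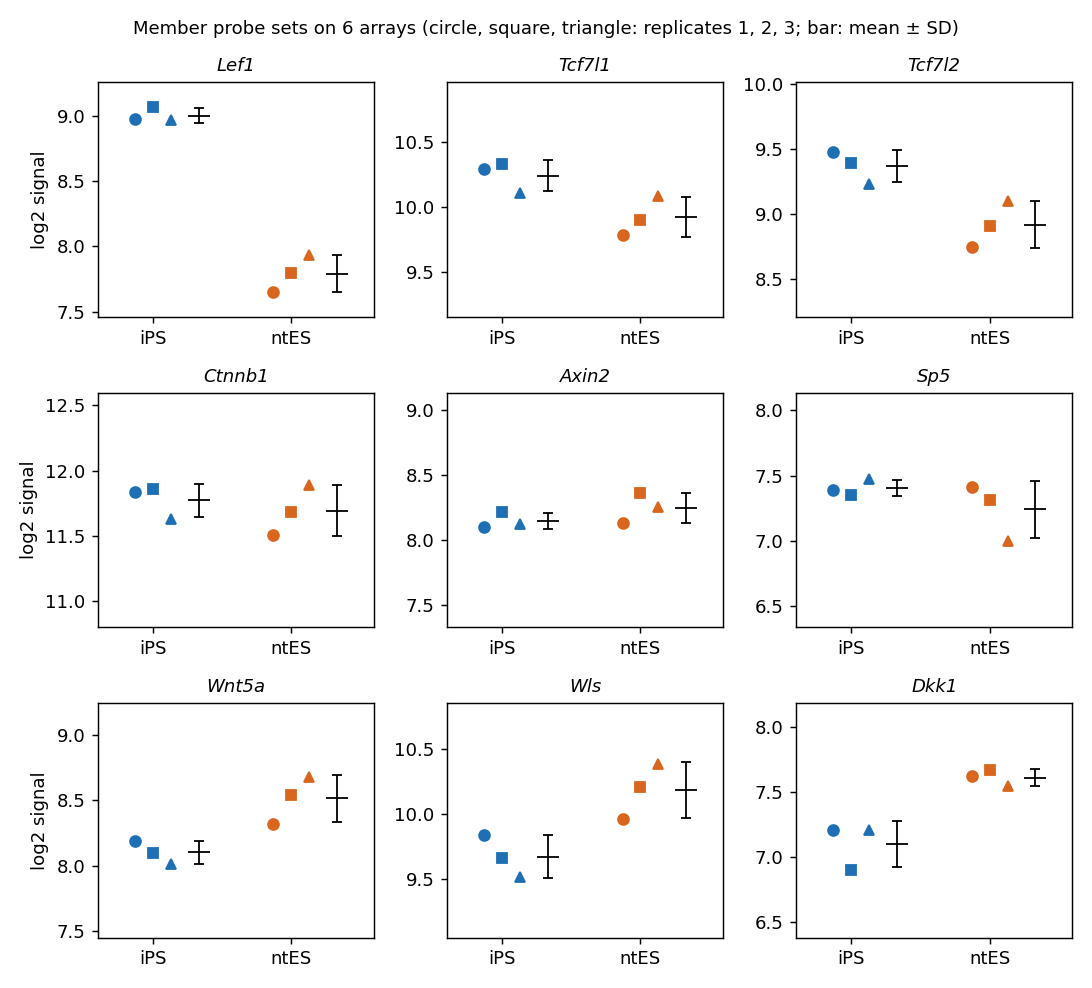
Log2 signal (y axis, the same span in each panel) of the 9 probe sets on 3 iPS arrays (blue) and 3 ntES arrays (orange), with replicates 1, 2 and 3 as circle, square and triangle and the mean ± SD as black bars. Lef1 separates furthest, from a mean of 9.003 to 7.791, and Ctnnb1, Axin2 and Sp5 overlap.

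As a description, the fit called 5 of the 9 probe sets, Lef1 and Tcf7l2 as lower and Wnt5a, Wls and Dkk1 as higher, where 11.3% of all probe sets were called. The groups did not overlap for 6 of the 9, against 26.5% of all probe sets and 26.8% of all genes. Nothing is read from these counts, since the list was chosen on this contrast. The call of Lef1 held in each fit without 1 array. Only Lef1 was called without iPS replicate 2 or without ntES replicate 2, and 3 of the 9 were called without iPS replicate 1 or without iPS replicate 3. After centring each array on its median, 2 were called higher and 3 lower in place of 3 and 2, since Wnt5a was no longer called and Tcf7l1 was called lower.

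**Figure D3:**
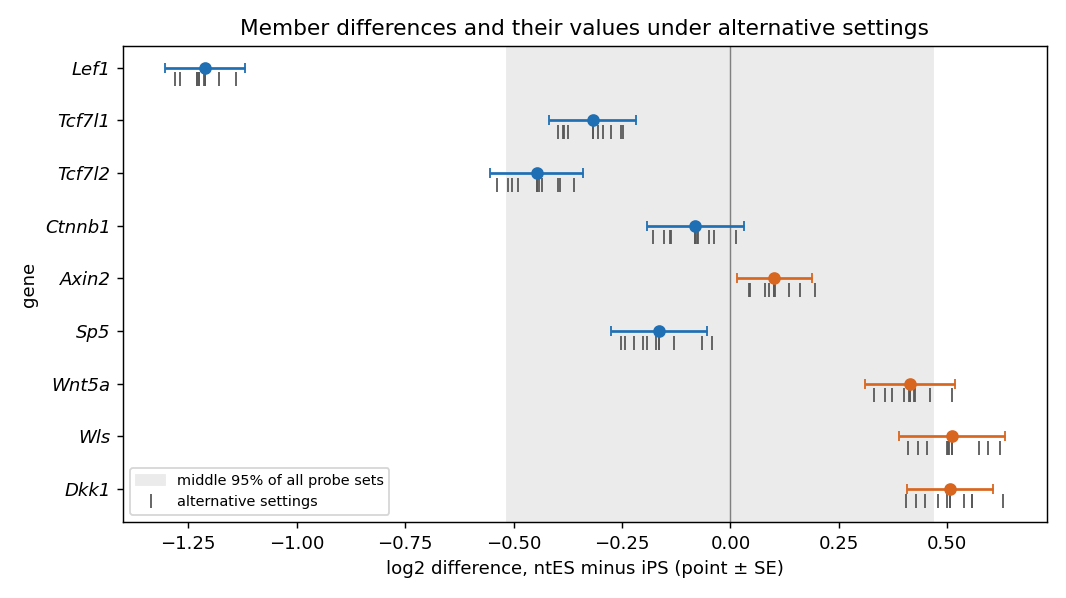
Log2 differences, ntES minus iPS, of the 9 genes (points ± SE, blue below and orange above 0) with the value under each alternative setting as grey ticks and the middle 95% of all probe sets, from -0.51 to 0.47, as the shaded band. The Lef1 ticks run from -1.28 to -1.14 and the Ctnnb1 ticks cross 0.

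The arrays of a group differed in a shared way. On ntES replicate 1, 7 of the 9 genes had their lowest ntES value, and on ntES replicate 3, 6 had their highest. Over all probe sets ntES replicate 1 was lowest in 49.5% and ntES replicate 3 highest in 47.2%. On the iPS side, replicate 3 was lowest for 6 of the 9 and for 45.0% of all probe sets. The spread of Lef1, Tcf7l1, Tcf7l2, Ctnnb1, Wls and Wnt5a within ntES cells follows this order of arrays, and its part in the differences was not tested.

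By place in the genome the 9 genes were scattered over 7 chromosomes, with Lef1 and Wls on chromosome 3 and Tcf7l2 and Dkk1 on chromosome 19. Of the 10 measured genes nearest to Lef1 in gene order, 5 on each side, 1 was called, Hadh, which was lower. The median difference of these 10 was -0.10, and the lowest was -0.53, so the Lef1 difference was larger in size than that of any of them. Around Tcf7l1, 4 of 10 neighbours fell, Elmod3, Tgoln1, Tmsb10 and Suclg1, with differences of -0.32, -0.38, -0.60 and -0.36. Of 10 neighbours of Dkk1, Gldc, a subunit of the glycine cleavage system, rose by 1.51 and Uhrf2 fell by 0.43 on the log2 scale. Arhgef3, 1 of 10 neighbours of Wnt5a, rose by 0.79. Of 5 neighbours of Wls, Srsf11 rose by 0.47, and the median of the 5 was 0.31, beside 0.51 for Wls. Among 10 neighbours of Axin2, Rgs9 rose by 0.37 and Amz2 fell by 0.59, and Zdhhc6, 1 of 10 neighbours of Tcf7l2, fell by 0.47. In all, 12 of 85 neighbours were called, or 14.1%, against 11.4% of all genes.

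The 5 brighter probe sets most like Lef1 over the 6 arrays were those of Prmt8, Gstz1, Slc35c2, 2810408A11Rik and Chd7. They were taken from 10471 probe sets with 1 symbol and a mean at or above the median. Pearson's r with Lef1 lay between 0.9985 for Chd7 and 0.9998 for Prmt8. With 2 groups of 3 arrays, any gene with a large and even group difference has a high r. The differences were -1.30 for Prmt8, a neural arginine methyltransferase, -1.47 for Gstz1, -0.23 for Slc35c2, -0.92 for 2810408A11Rik and -0.80 for the chromatin remodeller Chd7.

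The rest of the pathway was taken as 159 measured genes in 9 lists, of which 8 rose and 12 fell, or 12.6% called against 11.4% of all 19308 genes. The share called was thus close to the background. At an unadjusted p under 0.05, 25 of the 159 rose and 24 fell, against 2438 and 2318 of all 19308 genes. Unadjusted counts of single lists, given below, stand beside that large background. The median difference of the 159 genes was 0.06, against 0.04 over all genes, and 92 lay above 0. Centring on the array medians turned the split of 8 higher and 12 lower into 4 and 18. Of the 20 called genes, 6 passed in every fit that left out 1 array, namely Porcn, Bcl9, Cdh3, Ascl2, Tnfrsf19 and Esrrb. In the unmoderated linear model Tnfrsf19 alone of these 6 was called, and the adjusted p of the other 5 was 0.0557 to 0.0684. Only these 6 of the 20 stayed called without iPS replicate 2 and without ntES replicate 2, and 7 stayed without iPS replicate 1. Without ntES replicate 3 the count of called genes was 39, and 19 of the 20 were among them.

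Of 19 genes of Wnt ligands and their secretion, 1 rose and 1 fell. Porcn, the acyltransferase that adds the lipid needed for Wnt secretion, read 9.94, 9.93 and 9.86 in iPS and 9.11, 9.28 and 9.43 in ntES cells. Its groups were well apart, and it fell by 0.64 ± 0.09 (SE; adjusted p = 0.0020, limma). Wnt11, a ligand of the planar polarity route, read 7.22, 7.24 and 7.27 in iPS and 7.61, 7.66 and 7.47 in ntES cells and rose by 0.34 ± 0.08 (SE; adjusted p = 0.0255). Wnt11 missed the threshold when iPS replicate 1, 2 or 3 or ntES replicate 2 was left out, with an adjusted p of 0.0614 to 0.168 in those limma fits. Porcn, which modifies Wnt proteins, and Wls, which then carries them, thus differed in opposite directions. Of the 18 ligand genes other than Wnt5a, 17 had a difference above 0, with a median of 0.20. However, 16 of these 18 were below the median probe set, and 73.4% of all 9625 such dim genes lay above 0, with a median of 0.07. After quantile normalization 53.5% of the dim genes and 14 of the 16 dim ligand genes lay above 0.

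Of 26 receptor and R-spondin genes, 2 fell and none rose by limma, with 5 and 2 at an unadjusted p under 0.05. Lrp6, the co-receptor that Dkk1 blocks, read 9.91, 9.85 and 9.64 in iPS and 9.22, 9.38 and 9.54 in ntES cells and fell by 0.42 ± 0.11 (SE; adjusted p = 0.0303). Ror2, a receptor tyrosine kinase that binds Wnt5a, read 9.88, 9.77 and 9.70 in iPS and 9.37, 9.37 and 9.45 in ntES cells and fell by 0.39 ± 0.08 (SE; adjusted p = 0.0132). Wnt5a was thus higher where Ror2 was lower, and a link between the 2 was not tested. Ror1 and Ryk, on the same list, had differences of -0.17 and 0.18 and were not called. Lrp6 and Ror2 both missed the threshold when iPS replicate 1, iPS replicate 2 or ntES replicate 2 was left out, at an adjusted p of 0.0713 to 0.156 in limma. Lrp6 also missed the threshold without ntES replicate 1 (0.0562).

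Of 20 genes on the list of inhibitors, Sfrp2, a secreted protein that binds Wnt, rose by 0.36 ± 0.10 (SE; adjusted p = 0.0404, limma). Dkkl1, a Dickkopf-like protein, fell by 0.37 ± 0.07 (SE; adjusted p = 0.00993, limma), and whether it inhibits Wnt signalling was not tested. Sfrp2 lost its call without any 1 of 5 arrays, ntES replicate 1 being the exception, with an adjusted p of up to 0.184. It also lost it after median centring (0.085). Dkkl1 missed the threshold without iPS replicate 1 (0.0513), likewise without iPS replicate 2 (0.0691) and without ntES replicate 2 (0.0814). The Dickkopf relatives Dkk2, Dkk3 and Dkk4 had differences of 0.18, 0.06 and 0.05 and were not called, beside 0.51 for Dkk1.

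Of 23 genes of Dishevelled and the destruction complex, 2 rose and 2 fell. Dishevelled proteins pass the signal from the receptor, and their genes went both ways, with Dvl1 up by 0.36 ± 0.08 and Dvl2 down, at -0.34 ± 0.08 (SE; adjusted p = 0.0207 and 0.0198, limma). Csnk1e, a kinase that acts on Dishevelled, rose by 0.43 ± 0.11, and Frat1, which binds Gsk3, fell by 0.37 ± 0.08 (SE; adjusted p = 0.0353 and 0.0162, limma). Each of these 4 missed the threshold when iPS replicate 1, iPS replicate 2 or ntES replicate 2 was left out, with an adjusted p of 0.0593 to 0.143. Csnk1e also missed the threshold without iPS replicate 3 (0.108) and after median centring (0.0684). Axin1, Apc, Gsk3a and Gsk3b had differences of 0.13, 0.30, -0.24 and 0.11 and were not called.

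Of 20 nuclear partners of beta-catenin, 2 fell and none rose by limma, with 5 and 2 at an unadjusted p under 0.05. Bcl9, which ties beta-catenin to Pygopus, read 10.20, 10.14 and 9.97 in iPS and 9.15, 9.32 and 9.48 in ntES cells and fell by 0.79 ± 0.10 (SE; adjusted p = 0.00111). Pygo2, the Pygopus that Bcl9 recruits, read 8.73, 8.79 and 8.70 in iPS and 8.32, 8.36 and 8.34 in ntES cells and fell by 0.40 ± 0.08 (SE; adjusted p = 0.00752). Both steps of this coactivator chain were thus lower in ntES cells, while the related Bcl9l and Pygo1 had differences of 0.04 and 0.18 and were not called. A lower value was not particular to this chain. On the same list Tle3, Tle4 and Tle5 had differences of -0.33, -0.38 and -0.34, with groups that did not overlap. Tle1 and Tle2 had differences of 0.15 and 0.17, and none of the Tle genes was called. Pygo2 missed the threshold without iPS replicate 2 (0.0643) or ntES replicate 2 (0.0547). Of 8 junction partners, Cdh3, or P-cadherin, read 9.677, 9.577 and 9.364 in iPS and 8.601, 8.797 and 8.891 in ntES cells and fell by 0.78 ± 0.11 (SE; adjusted p = 0.00142), and none rose by limma (1 rose and 1 fell at an unadjusted p under 0.05). Cdh1, or E-cadherin, had a difference of -0.23 and was not called.

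Of 25 measured targets of beta-catenin and TCF, 4 rose and none fell by limma, with 7 and 1 at an unadjusted p under 0.05. Ascl2, a factor of intestinal stem cells and trophoblast, read 6.73, 6.75 and 7.03 in iPS and 7.54, 7.52 and 7.54 in ntES cells and rose by 0.69 ± 0.10 (SE; adjusted p = 0.00135). Tnfrsf19, a receptor of the tumour necrosis factor family, read 7.82, 7.80 and 7.95 in iPS and 8.42, 8.38 and 8.44 in ntES cells and rose by 0.56 ± 0.08 (SE; adjusted p = 0.00171). The AP-1 gene Fosl1 and the endoderm factor Foxa2 rose by 0.30 ± 0.08 and 0.28 ± 0.08 (SE; adjusted p = 0.0427 and 0.0457, limma). Both lost the call without iPS replicate 1, 2 or 3 or ntES replicate 2, at 0.0949 to 0.241, and after median centring, at 0.0999 and 0.0926. Foxa2 also lost it without ntES replicate 1 (0.0673). Ascl2 and Foxa2 are among the 12 targets with a mean below the median probe set, where 73.4% of all genes lay above 0. The feedback targets Lgr5, Nkd1, Znrf3, Rnf43 and Notum had differences of 0.10, -0.01, -0.30, 0.16 and -0.17 and were not called. Znrf3 came close to the threshold, at an adjusted p of 0.0503 (limma). For Znrf3 and Notum all ntES arrays lay below all iPS arrays, while the groups of Lgr5, Nkd1 and Rnf43 overlapped. The streak genes Mixl1, Cdx1, Cdx2 and Cdx4 had differences of 0.26, 0.05, 0.00 and 0.11 and were not called either.

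Tcf7l1 is known to hold down genes of the naive state, and 2 of 8 of these fell and none rose by limma, with 4 and 1 at an unadjusted p under 0.05. Esrrb read 11.62, 11.70 and 11.47 in iPS and 10.66, 10.75 and 11.02 in ntES cells and fell by 0.79 ± 0.11 (SE; adjusted p = 0.00135). Klf4 fell by 0.47 ± 0.10 (SE; adjusted p = 0.0134, limma) and missed the threshold when iPS replicate 1, iPS replicate 2 or ntES replicate 2 was left out (0.0706 to 0.0867). Of the 8 genes, 6 had a difference below 0 and 2 above, Nr0b1 at 0.27 and Klf2 at 0.16, neither of them called. Tcf7l1 had a lower ntES mean too but was not called, and a link between it and these genes was not tested. Of 16 planar polarity genes, Celsr1 fell by 0.30 ± 0.08 (SE; adjusted p = 0.0335, limma) and none rose, with 3 and 1 at an unadjusted p under 0.05. Celsr1 missed the threshold when iPS replicate 1, 2 or 3 or ntES replicate 2 was left out (0.0603 to 0.197).

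**Figure D4:**
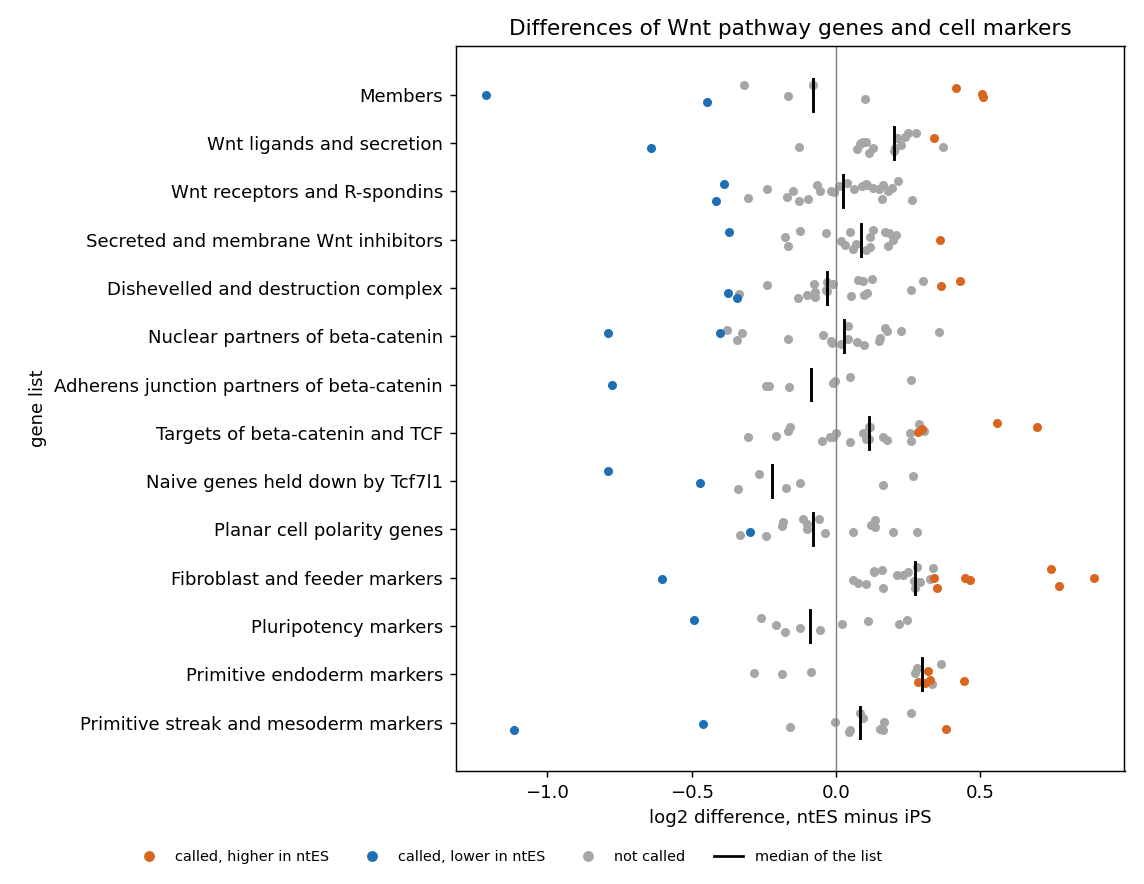
Log2 differences, ntES minus iPS (x axis), of the genes in each list (rows), with called genes in orange (higher) and blue (lower), others in grey, and the list's median as a black bar. The row of members is the set with Lef1, and the ligands other than Wnt5a sit mostly just above 0.

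**Figure D5:**
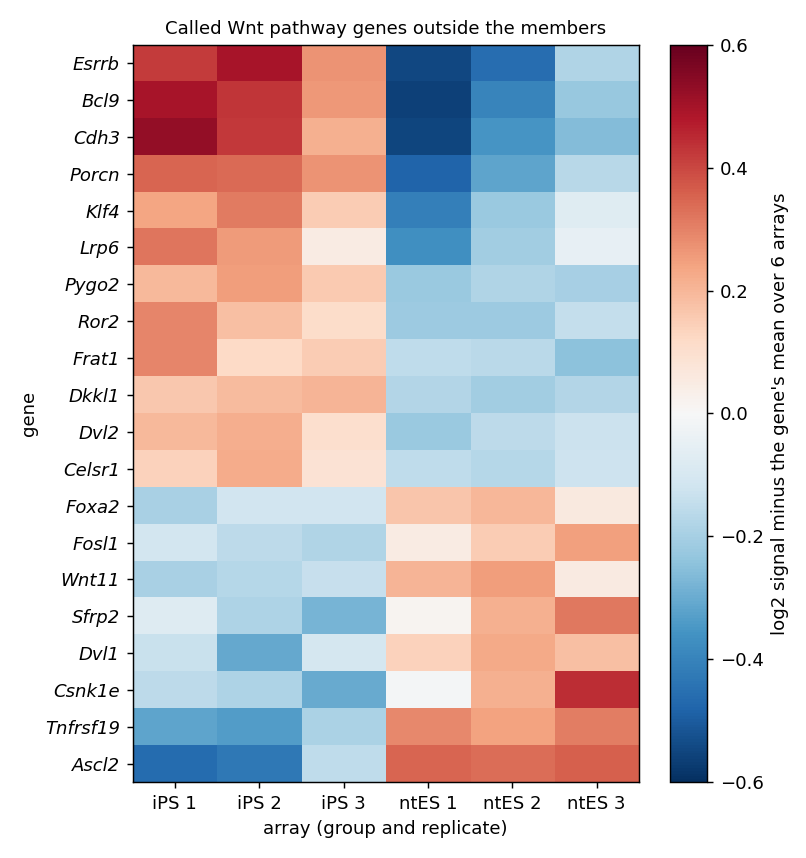
Log2 signal of the 20 called Wnt genes minus each gene's mean over the 6 arrays (colour), with arrays as columns and genes ordered by difference. Esrrb, Bcl9 and Cdh3 stand at one end, with differences of -0.79, -0.79 and -0.78, and Ascl2, at 0.69, at the other.

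Most listed markers of fibroblasts and of primitive endoderm had a difference above 0, as had Wnt5a, Wls and Dkk1, though most of these markers were not called. Of 25 fibroblast and feeder markers, 7 rose, 1 fell and 17 were not called, against 5.25% and 6.16% of all genes. Their median difference was 0.28, against 0.04 over all genes, with 24 above 0 and 1, Thy1, below. At an unadjusted p under 0.05 by limma, 12 rose and 1 fell. Timp3 and Ccn2 rose by 0.89 ± 0.13 and 0.77 ± 0.11 (SE; adjusted p = 0.00164 and 0.00173, limma), and neither was called in the unmoderated linear model (0.0849 and 0.0745). Thy1, a surface marker of fibroblasts, fell by 0.60 ± 0.11 (SE; adjusted p = 0.00498, limma). The summed linear signal of the 25 lay between 37790.3 and 46640.1 on the iPS arrays and between 45698 and 58995 on the ntES arrays, so the groups overlapped. A linear sum weights the brightest markers most, so it need not describe most markers of a list. Of the 25 markers, 22 read at or above the median probe set. Of 12 primitive endoderm markers, 5 rose, none fell and 7 were not called by limma (9 and 1 at an unadjusted p under 0.05), with Col4a1 and Gata6 up by 0.44 ± 0.08 and 0.32 ± 0.09 (SE; adjusted p = 0.00466 and 0.0347). Of the 12, 9 had a difference above 0 and 3 below. Those below were Sox7 (-0.28, groups not overlapping), Dab2 (-0.19) and Lama1 (-0.09), none of them called. Pdgfra and Sparc are also on the fibroblast list, and Foxa2 is also among the targets. The summed signal of the 12 ran from 8217 to 9552 in iPS and from 9518 to 11537 in ntES cells, which also overlap. Gata6 missed the threshold when iPS replicate 1, 2 or 3 or ntES replicate 2 was left out (0.0951 to 0.188) and after median centring (0.0783). The part of these cells in the Wnt5a, Wls and Dkk1 values was not tested.

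Of 13 measured streak and mesoderm markers, 1 rose and 2 fell, and their summed signal was 2909 to 2994 in iPS and 2720.0 to 2837 in ntES cells. The lower sum does not describe most of these markers, since 9 had a difference above 0 and 4 below, with a median of 0.08. The 1 that rose was Snai1, by 0.38. Eomes, a T-box factor of the streak and trophoblast, read 9.04, 9.09 and 8.87 in iPS and 7.71, 7.98 and 7.98 in ntES cells and fell by 1.11 ± 0.10 (SE; adjusted p = 0.000132, limma). Tbx20, a heart field factor, fell by 0.46 ± 0.08 (SE; adjusted p = 0.00519, limma). Of the 10 pluripotency markers Zfp42 fell by 0.49 ± 0.11 (SE; adjusted p = 0.0185, limma) and none rose, with 1 in each direction at an unadjusted p under 0.05. Zfp42 missed the threshold when iPS replicate 1, iPS replicate 2 or ntES replicate 2 was left out (0.0827 to 0.11). The summed pluripotency signal was 22958 to 26937 in iPS and 20573 to 27752 in ntES cells, so the groups overlapped.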

How the data were processed

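RNA of 6 samples, 3 iPS and 3 ntES, was measured on Affymetrix gene arrays. The authors deposited log2 values for 23344 probe sets, a scale read from the values (3.61 to 13.7). Per the submitters' processing notes the scans were handled in GCOS 1.4. The sources used here do not give the background correction, normalization, summary or genome build. The number of arrays limits the precision.

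Array medians lay within 0.088 of each other, so the values were not rescaled, though every ntES median was above every iPS median. Groups came from sample titles. All probe sets were fitted with limma 3.58.1 (lmFit, eBayes; R 4.3.3), two-sided and with no covariates, with Benjamini-Hochberg adjustment over all probe sets, and called at an adjusted p under 0.05. The fit was also run on simulated data with independent noise in each value. Such data lack the deviations that probe sets of an array share here, so the run does not check the fit against them. The platform annotation gave 1 symbol for 20746 probe sets. A gene was read through its brightest probe set, and 807 genes had several. Tables and figures used Python 3.11.15, pandas 2.3.3 and numpy 2.4.6.

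The genes and lists were chosen with earlier results of these data known. Named were all probe sets of the 10 genes, up to 5 called genes of each Wnt list by size of difference, 2 of each marker list, and the 5 probe sets most like Lef1. Other genes in the text were named after their values were seen. The lists covered ligands, receptors, inhibitors, the destruction complex, nuclear and junction partners, targets, Tcf7l1-repressed genes, planar polarity, and fibroblast, endoderm, mesoderm and pluripotency markers. Alternatives were quantile normalization, median centring, filters on dim or unnamed probe sets, other variance priors, weights for arrays, the replicate number as a block, an unmoderated model, a threshold of 0.01, gene means and leaving out each array. Promoter sequences and gene order are RefSeq's (GRCm38.p6).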

Additional observations from a re-analysis of the deposited data

How the results depend on the processing

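Limits lie in the 3 arrays per group. All 9 genes with Lef1 kept the sign of their difference under every alternative that gave a value, except Ctnnb1, which reached 0.01 in 1 of 14; Lef1 stayed between -1.28 and -1.14. Against 2643 called probe sets, 20 called Wnt genes outside the 10 and 5 called of the 9, quantile normalization gave 7035, 68 and 7, and the unmoderated linear model 703, 3 and 1. A threshold of 0.01 gave 1150 probe sets and 8 Wnt genes. Array weights gave 15271, 113 and 8, but their estimation did not converge and put nearly all weight on ntES replicate 2. Leaving out 1 array gave 1014 to 5044 probe sets, 6 to 39 Wnt genes and 1 to 6 of the 9, with the fewest probe sets without ntES replicate 2 and the most without ntES replicate 3. With the replicate block the counts were 1983, 10 and 5, and 10 of the 20 Wnt genes stayed called. Same-numbered arrays did not deviate together (correlations of -0.43, -0.10 and -0.72), and no array correlated best with the array of its own number. This comes from the data and not from the design. Deviations from a mean of 3 arrays depend on each other, so these correlations cannot decide whether the numbers pair the samples. The remaining settings kept each count within 1.5 times its value. Dkk1 and Sp5 have no value in the filter on dim probe sets.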
